A study of Mus musculus with 30 samples.

Results

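Transcription that starts on, runs through or ends in endogenous retroviruses of the ERVK class was followed in 5686 non-coding transcription units. These are all units that the study's table lists as non-coding and that share at least 1 base, on the same strand, with a repeat copy of the ERVK class in that table. They are 5686 of 42029 non-coding units and of 382367 transcription units in all, and no unit had to be left out for lying over the ribosomal precursor Rn45s. Each unit was put in a family group by the ERVK family that covers most of its bases. The IAP group held 2733 units, MMERVK10C and RLTR10 held 778, ETn and MusD 684, RLTR13 with ERVB4 and RLTR44/45 381, MMERVK9 and RLTR9 334, RMER 284, BGLII 42, RLTR17 25 and the remaining ERVK families 425.

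Nascent RNA was measured by TT-seq, which labels new RNA briefly with 4-thiouridine and sequences what was labelled, in mouse embryonic stem cells of the line that the labels call dTKO. The genotype of every sample, 0 h included, is given as Suv39h1fl/fl ; Suv39h2-/- ; Setdb1fl/fl, and the cells were kept with auxin and dTAG13 for 0, 3, 12, 24 or 48 h. Both compounds are used to have a tagged protein degraded, and which proteins are tagged in this line is not named in the labels. The cells were grown with LIF and serum on gelatin. The 3 biological repeats of each time (n = 3 throughout) sample cultures of 1 line, which may be 1 clone, and p-values measure the spread between them. The 0 h cells are the baseline for every comparison.

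ERVK elements are retroviruses that entered the germ line and spread, and each full copy has an internal part with viral genes between a pair of long terminal repeats (LTRs). An LTR holds a promoter and a polyadenylation signal, so a single LTR can start a transcript that runs out into the flanking DNA. In embryonic stem cells many ERVK copies are silenced by trimethylation of histone H3 lysine 9. KRAB zinc finger proteins find the copies and TRIM28 brings SETDB1, which places the mark, and the SUV39H enzymes place the same mark over wider heterochromatin. IAP and MusD elements can still move in some mouse strains, and ETn elements move with proteins that MusD supplies.

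Some of these units hold the start of a gene that RefSeq annotates, which gives the sequence of the repeat at that start. Of 32851 RefSeq promoter windows (250 bases before to 50 after each start, GRCm38.p6), 157 lay over an ERVK copy on the same strand and 41 of these lay in one of the units. Of the 35 such units that were tested, 25 were called higher and 6 lower after 48 h, beside 29.3% and 39.4% of all tested non-coding units, where a call is an adjusted p under 0.05. The following 6 windows were chosen after their values were seen, from those with at least 200 bases in the copy, to set LTRs whose units rose beside LTRs whose units fell. The annotated start lies 4304 and 4883 bases into the rising units of Gm41479 and Gm34536, and 132 bases into that of Gm41143. In the falling units of Gm34931, Platr10 and Gm39858 it lies 284, 70 and 214 bases in. Falling units do not all have the start so near. In that of Gm38894, over an RLTRETN_Mm LTR and not printed here, it lies 9908 bases in (log2 change after 48 h -0.81). The signal of a unit therefore need not start in the LTR shown. Capitals mark the bases that lie in the ERVK copy.
Gm41479, over an IAPLTR1_Mm LTR, chr16:80294655-80294954, plus strand: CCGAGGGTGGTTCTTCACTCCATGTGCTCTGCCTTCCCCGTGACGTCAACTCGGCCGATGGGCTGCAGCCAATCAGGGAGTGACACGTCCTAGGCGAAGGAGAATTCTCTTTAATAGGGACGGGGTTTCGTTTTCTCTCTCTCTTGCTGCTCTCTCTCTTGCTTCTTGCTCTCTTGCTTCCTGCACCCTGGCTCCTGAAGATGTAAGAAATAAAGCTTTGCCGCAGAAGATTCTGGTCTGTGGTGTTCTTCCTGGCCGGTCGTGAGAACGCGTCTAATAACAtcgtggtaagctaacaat
Gm34931, over an IAPLTR2a2_Mm LTR, chr5:114699468-114699767, minus strand: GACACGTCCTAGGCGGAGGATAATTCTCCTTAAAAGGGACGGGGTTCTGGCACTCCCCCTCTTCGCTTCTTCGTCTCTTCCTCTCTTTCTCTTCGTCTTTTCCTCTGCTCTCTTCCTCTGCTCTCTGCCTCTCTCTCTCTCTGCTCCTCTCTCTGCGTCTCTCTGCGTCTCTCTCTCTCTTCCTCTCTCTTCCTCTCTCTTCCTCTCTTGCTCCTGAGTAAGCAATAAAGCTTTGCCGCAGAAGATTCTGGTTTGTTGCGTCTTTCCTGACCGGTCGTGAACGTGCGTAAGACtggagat
Gm34536, over an RLTR10C LTR, chr5:26389034-26389333, plus strand: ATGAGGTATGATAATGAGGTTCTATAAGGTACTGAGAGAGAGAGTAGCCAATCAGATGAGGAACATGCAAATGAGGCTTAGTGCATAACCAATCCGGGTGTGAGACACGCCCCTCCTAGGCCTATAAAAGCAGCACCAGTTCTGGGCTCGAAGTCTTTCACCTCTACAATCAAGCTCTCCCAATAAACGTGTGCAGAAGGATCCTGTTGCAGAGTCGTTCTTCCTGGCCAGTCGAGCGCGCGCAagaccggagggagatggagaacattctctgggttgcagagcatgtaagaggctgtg
Gm41143, over an RLTR13B2 LTR, chr14:45391483-45391782, plus strand: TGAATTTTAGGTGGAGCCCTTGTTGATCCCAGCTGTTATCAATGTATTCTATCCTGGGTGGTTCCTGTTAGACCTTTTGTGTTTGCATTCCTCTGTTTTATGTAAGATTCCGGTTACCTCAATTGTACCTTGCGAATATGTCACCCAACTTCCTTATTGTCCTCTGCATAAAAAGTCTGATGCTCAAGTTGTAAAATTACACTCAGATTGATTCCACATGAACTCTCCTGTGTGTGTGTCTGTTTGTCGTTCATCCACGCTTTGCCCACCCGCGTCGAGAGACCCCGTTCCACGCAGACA
Platr10, over an RLTR9E LTR, chr3:75655682-75655981, minus strand: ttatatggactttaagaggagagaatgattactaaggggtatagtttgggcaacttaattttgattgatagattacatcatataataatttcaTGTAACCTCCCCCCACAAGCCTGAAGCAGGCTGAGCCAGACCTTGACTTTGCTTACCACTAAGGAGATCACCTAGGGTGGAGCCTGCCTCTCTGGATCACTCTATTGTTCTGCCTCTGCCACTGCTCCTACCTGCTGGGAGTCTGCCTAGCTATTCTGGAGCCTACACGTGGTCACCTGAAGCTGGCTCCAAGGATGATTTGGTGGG
Gm39858, over an RMER20B LTR, chr2:75633765-75634064, plus strand: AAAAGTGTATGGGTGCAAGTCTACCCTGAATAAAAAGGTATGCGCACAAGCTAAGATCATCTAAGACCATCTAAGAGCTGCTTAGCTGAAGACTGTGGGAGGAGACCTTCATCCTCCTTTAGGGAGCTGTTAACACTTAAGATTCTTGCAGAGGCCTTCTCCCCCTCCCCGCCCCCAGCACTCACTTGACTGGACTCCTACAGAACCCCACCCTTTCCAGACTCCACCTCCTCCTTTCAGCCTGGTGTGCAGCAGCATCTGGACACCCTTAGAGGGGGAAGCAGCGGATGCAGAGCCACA

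Both IAP windows hold the polyadenylation signal letters AATAAA, at base 209 in Gm41479 and base 224 in Gm34931, counted from the 5′ end of the window. The RLTR10C window holds the TATA box letters TATAAA at base 123 and AATAAA at base 182, and the RLTR13B2 and RLTR9E windows hold neither. The RMER20B window, of a unit that fell, holds AATAAA at base 29. Over the 41 windows, AATAAA was found on either strand in 68.3%, against 19.6% of all 32851 windows, and TATAAA in 12.2% against 13.6%. The letters TGGTGCCGA, with which the primer binding site for phenylalanine tRNA begins (as in IAP, just after the first LTR), were in 12.2% of the 41 windows against 0.107% of all. The corresponding letters for lysine tRNA, TGGCGCCCG, were in 0 of the 41 and in 0.347% of all. The 41 are among the 157 windows over an ERVK copy on the same strand. Of those 157, AATAAA was in 52.2% and TATAAA in 15.9%, the phenylalanine letters in 7.01% and the lysine letters in 0.637%. Much of the excess of AATAAA over all windows is thus shared by windows over ERVK copies at large. These are matches of letters in these windows and were not tested.

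Values are scaled reads: the reads of a unit over the size factor of its library, with no division by length, so they compare times within a unit and not units with each other. The unit over the Gm41479 start (chr16:80290601-80316201) held 0.813, 3.33 and 1.71 scaled reads in the 3 libraries at 0 h, 47.3, 53.7 and 36.9 after 12 h and 419, 473 and 428 after 48 h (log2 change 7.31, SE 0.24, adjusted p 1.23e-23). Every library after 48 h lay far above every library at 0 h. The unit over the other IAP LTR, Gm34931 (chr5:114696001-114699801), fell from 39, 38.3 and 46.3 at 0 h to 19.2, 20.1 and 21.4 after 48 h (log2 change -0.99, SE 0.24, adjusted p 0.000493). These 2 units that hold a gene start in an IAP LTR were chosen as a called rise and a called fall, so their opposite directions are not a finding. In both, the 0 and 48 h libraries did not overlap. They are not like cases, since the gene start lies 4304 bases into the rising unit and 284 bases into the falling one. The RLTR10C unit of Gm34536 (chr5:26384401-26405801) had already risen after 3 h, from 4.88, 7.49 and 4.29 to 33.8, 13.4 and 10.9 (log2 change 1.50, SE 0.23, adjusted p 1.3e-05). It reached 559, 636 and 588 after 48 h. The RLTR13B2 unit of Gm41143 (chr14:45391601-45395401) held 29.3, 25 and 28.3 at 0 h and 841, 973 and 876 after 48 h (log2 change 4.98, SE 0.16, adjusted p 1.04e-23). Its log2 change after 3 h was -0.03 (adjusted p 0.918), a sign that turns when the size factors are taken over genes. The first 2 of these 3 rising units were close to silent at 0 h, and the third was not. Platr10, a non-coding RNA named for its expression in pluripotent cells, and the RMER20B unit of Gm39858 fell. Platr10 (unit chr3:75636601-75655801) went from 1240.5, 1377 and 1261 to 839.7, 885 and 852 (log2 change -0.59, SE 0.11, adjusted p 2.05e-05). The Gm39858 unit (chr2:75633801-75638601) went from 111, 127 and 137 to 45, 57.3 and 62.7 (log2 change -1.18, SE 0.16, adjusted p 9.82e-08).

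The libraries held 37.1 to 42.3 M (mega) recovered reads over all units, of which 0.459 to 1.55 M lay in the 5686 units. At 48 h, 1167 of 15261 tested genes (7.65%) were called higher and 8905 (58.4%) lower, so falls were common outside the repeats. Size factors taken over genes, in place of the deposited ones, raise the log2 changes by about 0.24 after 3 h, 0.08 after 24 h and 0.36 after 48 h and lower them by 0.18 after 12 h. Of the embryonic stem cell genes Pou5f1, Nanog, Sox2, Esrrb, Klf4, Zfp42 and Tfcp2l1, 6 were called lower and Zfp42 higher after 48 h with either scaling. Their summed signal was 15037 to 16740 at 0 h and 9969.7 to 10434 after 48 h. Markers of other cells were far lower: 5 trophectoderm genes summed to 111 to 126 at 0 h and 100.4 to 130.1 after 48 h, 4 primitive endoderm genes to 174 to 180.0 and 156 to 188, and 5 fibroblast genes to 261 to 314 and 306 to 414. None of these 14 genes was at 0 throughout. Gata3, Col1a1 and Col1a2 were called higher after 48 h, with either scaling, and Cdx2, Eomes, Sox7 and Thy1 lower, of which Cdx2 was not called after rescaling (adjusted p 0.265). After rescaling, 2 primitive endoderm genes were called higher as well, and the part of these genes in the results was not tested. Suv39h2, labelled -/- in every sample, held 1091 ± 72.9 at 0 h and 803 ± 69.4 after 48 h (SD), and a sum over the gene does not show whether the deleted part is read. In these bulk cultures, more cells that transcribe a unit and more RNA per cell cannot be told apart.

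Signal over the ERVK units rose from 12 h on. Summed over all 5686 units, with no filter on low values, it was 386549, 410181 and 393884 scaled reads in the 3 libraries at 0 h and 370899, 329403 and 380381 after 3 h. It was 623407, 780663 and 683182 after 12 h, 915625, 1119777 and 873054 after 24 h and 1107882, 1198407 and 1165424 after 48 h. The 3 libraries at each of 12, 24 and 48 h lay above all libraries at 0 h, and those after 3 h below them. As ratios of means to 0 h these are 0.908, 1.75, 2.44 and 2.92, and the 3 h ratio turns to 1.07 after rescaling over genes. The share of all non-coding signal (Rn45s units left out) that lay in these units went from 11% at 0 h to 28.7% after 48 h. Without the 3 units that were highest at 0 h the 48 h ratio was 3.50. The number of units with no read in any 0 h library was 1371, and 24 units had none after 48 h.

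**Figure D1:**
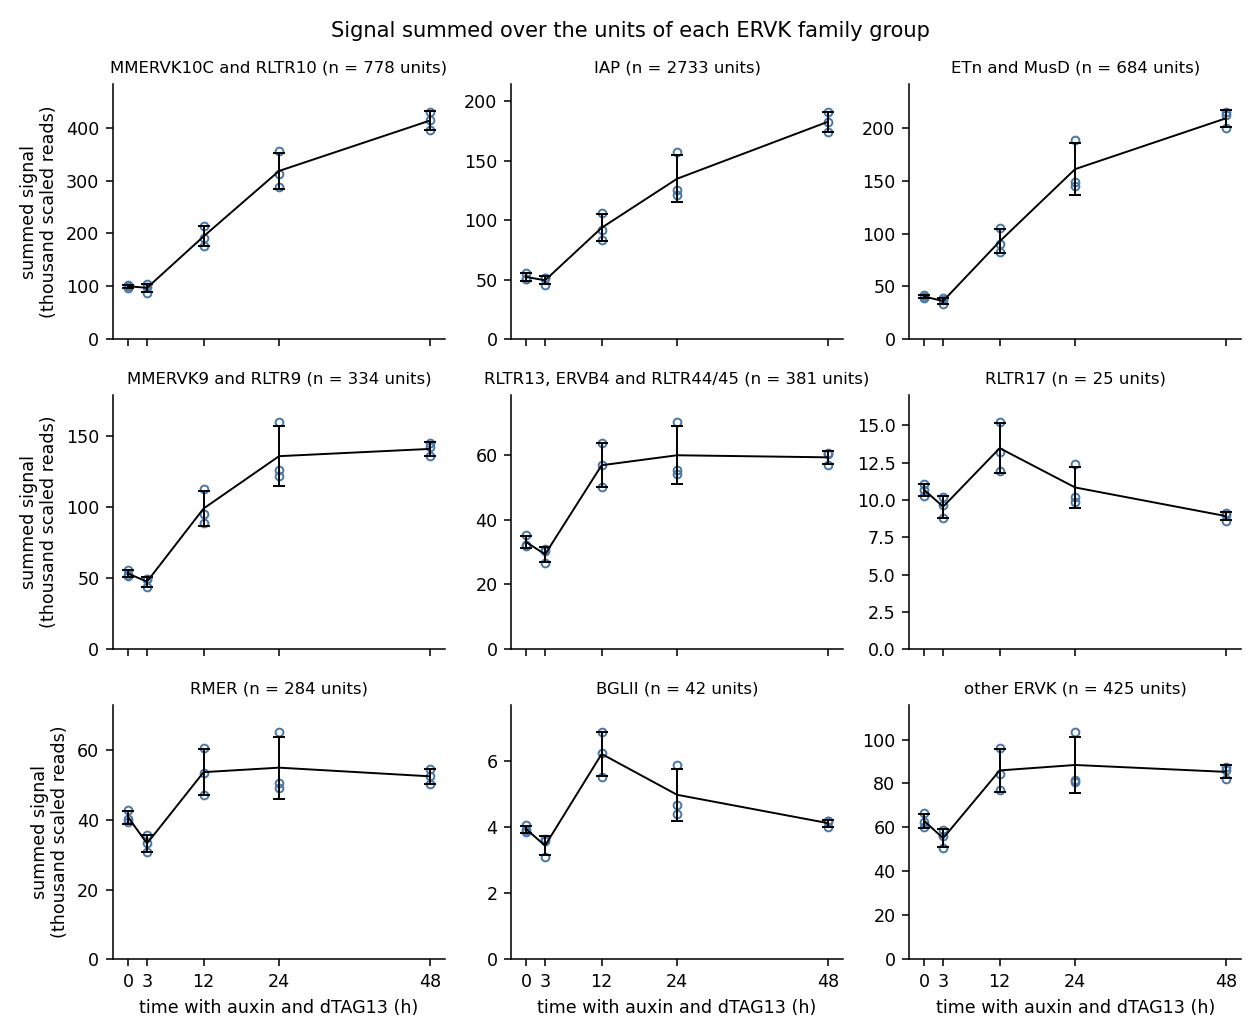
Summed signal (scaled reads on a linear axis from 0) against time for the units of each ERVK family group; circles are the 3 libraries, the line joins the means and bars are SD. The 3 groups in the top row climb up to 48 h, whereas RLTR17 and BGLII have their highest mean after 12 h and the MMERVK9, RLTR13, RMER and other groups change little after 24 h.

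The test was run on the 2676 units whose mean over all libraries was 10 scaled reads or more (limma on log2 of the value plus 1, p-values adjusted by Benjamini-Hochberg over 15730 non-coding units). Of these, 718 were called higher and 140 lower after 3 h, 2080 and 52 after 12 h, 2112 and 163 after 24 h and 2081 and 305 after 48 h, with median log2 changes of 0.19, 1.91, 3.33 and 3.98. Over all 15730 tested non-coding units the shares were 7.74% higher and 8.06% lower after 3 h, 29.4% and 11.1% after 12 h, 30.4% and 24.8% after 24 h, and 29.3% and 39.4% after 48 h. Among the ERVK units 26.8% were higher and 5.23% lower after 3 h, and 77.8% and 11.4% after 48 h. A unit that was silent at 0 h could enter the test only by rising, so these counts are not a sample of all 5686. Single libraries decided many of the early falls: the 140 lower after 3 h became 66 when 0 h replicate 2 was left out, 83 when 0 h replicate 3 was, and 64 when 3 h replicate 2 was. The 52 lower after 12 h became 31 when 0 h replicate 3 was left out. For the 1266 units that already averaged 10 or more scaled reads at 0 h there was no such requirement, and 662 of them were higher and 322 lower after 48 h (median 0.50), beside 12% and 51.4% of all 14506 non-coding units chosen that way. At 3 h 223 of these 1266 were higher and 114 lower, beside 2.66% and 8.27% of the 14506.

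**Figure D2:**
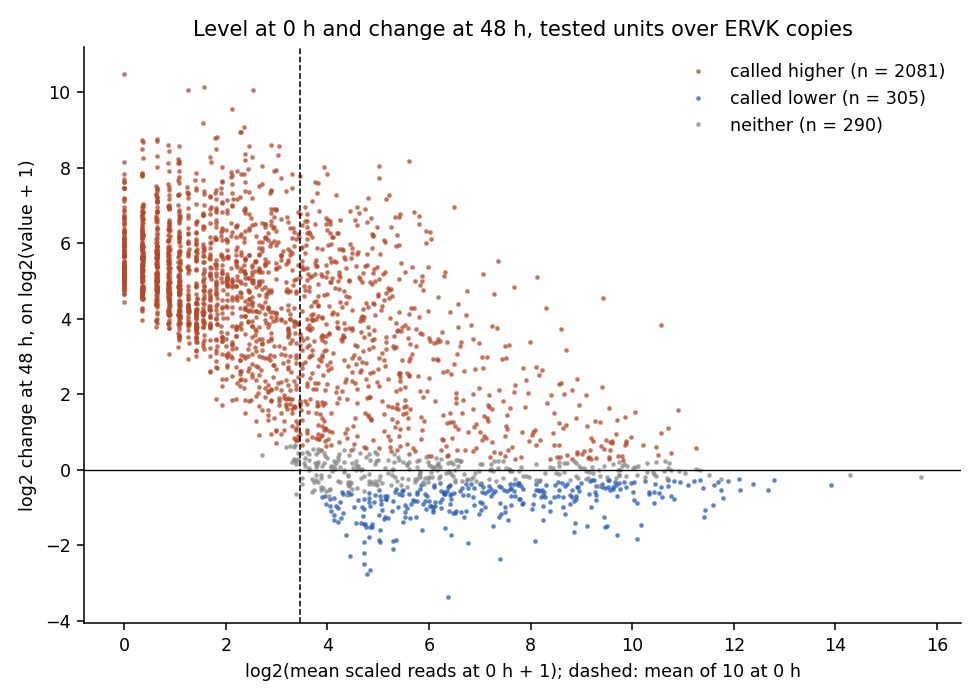
Log2 change after 48 h (vertical) against the mean at 0 h on a log2(value + 1) axis for each of the 2676 tested units, coloured by the call; the dashed line marks a mean of 10 at 0 h. Left of the line almost every unit lies high, because only units that rose pass the filter, while right of it 662 units were higher and 322 lower in the fit made on that filter.

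The call of the 48 h falls depends on the scaling more than that of the rises. After rescaling over genes, 2231 ERVK units were higher and 167 lower after 48 h, beside 35.7% and 22% of all non-coding units. At 3 h the rescaled counts were 924 and 43, beside 11% and 1.89%. Of the 305 units called lower with the deposited scaling, 167 were called lower with both.

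The family groups differed in how many units rose, and when. Of 520 tested MMERVK10C and RLTR10 units, 342 were higher after 3 h and 489 after 48 h, while 2 and 12 were lower. Their median log2 change went from 1.10 after 3 h to 3.29 after 12 h, 4.44 after 24 h and 5.12 after 48 h. Of 804 IAP units, 152 were higher after 3 h, 713 after 12 h and 723 after 48 h, with medians of 0.24, 2.01 and 4.77. Of 480 ETn and MusD units, 80 were higher after 3 h, 390 after 12 h and 423 after 48 h, with medians of -0.01 (0.21 after rescaling), 1.73 and 3.87. Over all tested non-coding units 7.74% were higher after 3 h, 29.4% after 12 h and 29.3% after 48 h, and 8.06%, 11.1% and 39.4% were lower. Among units that already averaged 10 or more at 0 h, which did not have to rise to be tested, 104 of 179 MMERVK10C and RLTR10 units (58.1%) were higher after 3 h, 28 of 180 IAP units (15.6%) and 32 of 246 ETn and MusD units (13%), beside the 2.66% of all units chosen that way. The difference between the groups was not tested. In the same units, 148 of 179 MMERVK10C and RLTR10 units were higher after 48 h (median 3.86), 190 of 246 ETn and MusD units (median 2.74) and 101 of 180 IAP units (median 0.74). Of all non-coding units chosen that way, 12% were higher and 51.4% lower after 48 h.

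The MMERVK9 and RLTR9 group had 169 of 229 units higher and 31 lower after 48 h (median 2.78), and the RLTR13, ERVB4 and RLTR44/45 group 109 of 173 higher and 27 lower (median 1.60). The other groups were nearer to the 29.3% higher and 39.4% lower of all tested non-coding units. RMER, an old and mostly fragmentary set of LTRs, had 74 of 173 units higher and 60 lower (median 0.16). BGLII had 9 and 8 of 23 (median 0.24). RLTR17 had 7 and 8 of 18 (median -0.20, which turns to 0.16 after rescaling), and the remaining families had 78 and 103 of 256 (median -0.19, which turns to 0.16). Among single families, MMERVK10C-int had 268 of 362 units higher after 3 h and 352 after 48 h, IAPEz-int 73 and 533 of 570, MMETn-int 35 and 222 of 253, and MMERVK9C_I-int 44 and 119 of 143. Within the IAP group the families were uneven after 3 h: 24 of 40 IAPEY3-int units, 16 of 24 IAP1-MM_I-int units and 7 of 12 IAPEy-int units were higher then, and 4 of 26 IAPLTR1_Mm units. Over all tested non-coding units 7.74% were higher after 3 h. RLTR9E, an LTR known to be bound by pluripotency factors in embryonic stem cells, went the other way, with 0 of 25 tested units higher and 15 lower after 48 h. After rescaling this became 3 higher and 2 lower.

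**Figure D3:**
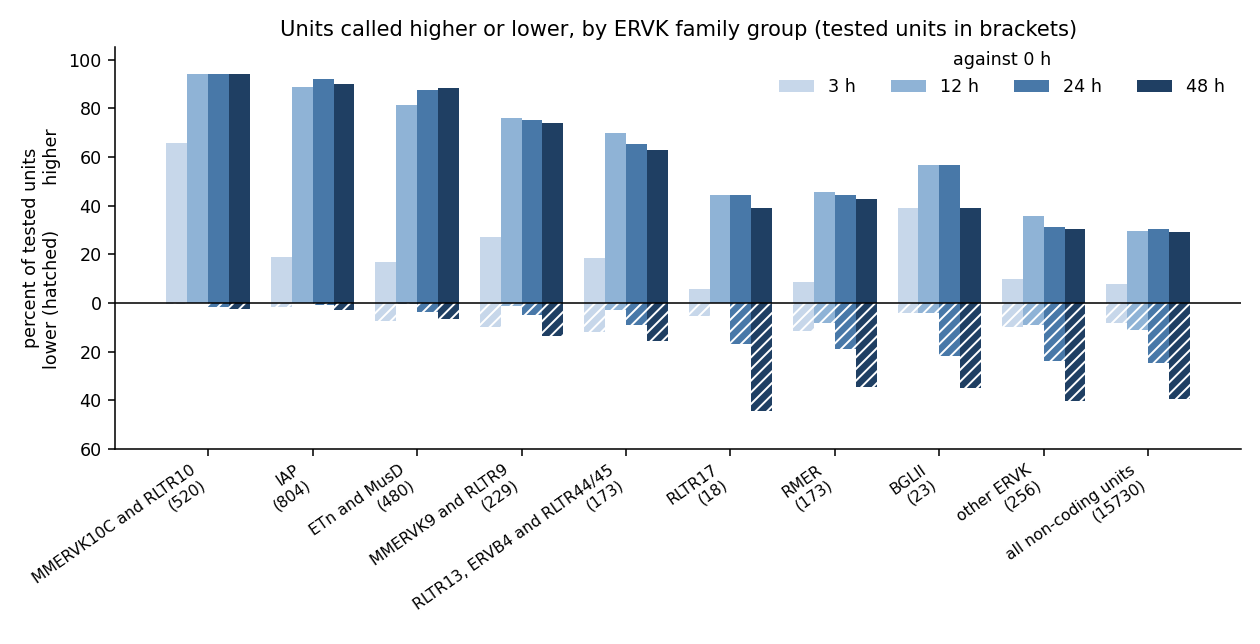
Percent of tested units called higher (solid, upward) or lower (hatched, downward) against 0 h at 3, 12, 24 and 48 h for each ERVK family group and for all 15730 tested non-coding units. The MMERVK10C and RLTR10 bar stands far above the others after 3 h, and after 48 h the first 5 groups have 63 to 94% of units higher against 30.5 to 42.8% in the last 4 and 29.3% of all.

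The MMERVK10C unit with the largest rise, chr7:28214401-28248801 on the plus strand, has ERVK sequence, mostly internal MMERVK10C, over 15.9% of its bases and none at its start. It held 1.63, 4.99 and 3.43 scaled reads at 0 h, 21.6, 9.54 and 6.2 after 3 h, 136, 166 and 159 after 12 h, 1349.9, 1737 and 1346 after 24 h and 2834, 3262 and 3189 after 48 h (log2 change 9.55, SE 0.25, adjusted p 2.49e-26). Each time lay above the one before in all 3 libraries. The unit chr19:9502201-9522801, which begins in an ERVK copy, went from 6.5, 0.832 and 5.14 at 0 h to 2201, 2547 and 2422 after 48 h (log2 change 9.09, SE 0.31, adjusted p 3.78e-23). On the minus strand of the X chromosome, chrX:122237601-122253201 went from 3.25, 4.16 and 4.29 to 2276, 2579 and 2412 (log2 change 8.96, SE 0.23, adjusted p 1.58e-26). All 3 units were close to silent in every 0 h library. The unit with the largest called rise after 3 h was chr12:20866601-20877001, with 6.5, 4.99 and 7.72 at 0 h and 103, 48.4 and 55.8 after 3 h (log2 change 3.18, SE 0.18, adjusted p 1.88e-14). It reached 2866 ± 263 (SD) after 48 h. The first replicate was the highest of the 3 h libraries in it. A further early unit, chr17:81794401-81806801, had 2.44, 0 and 1.71 at 0 h and 21.6, 15.9 and 11.6 after 3 h (log2 change 3.00, SE 0.29, adjusted p 1.13e-09). The largest called fall of the group, chr19:8236801-8243201, went from 18.7, 34.9 and 22.3 to 2.95, 2.32 and 6.11 (log2 change -2.49, SE 0.34, adjusted p 6.86e-08).

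In the IAP group, the first base of the unit chr10:33891001-33898801 lies in an IAPLTR1_Mm LTR that covers only 1.19% of the unit. Unit ends lie on a 200-base grid, so this does not show that the RNA starts in the LTR. No read fell in this unit in the 3 libraries at 0 h, and it had 4.73, 2.55 and 0 after 3 h, 107, 113 and 96.5 after 12 h, 763, 995 and 728 after 24 h and 1415, 1509 and 1423 after 48 h. With 3 reads over all 0 h libraries taken as the limit of a count of 0, this is at least 1737-fold higher after 48 h. The unit chr17:18555801-18580801 is 60.8% ERVK, with internal IAP and ETn parts, and held 0.813, 2.5 and 2.57 at 0 h, 18.2, 8.91 and 7.75 after 3 h and 3060.3, 3372 and 3154 after 48 h (log2 change 10.14, SE 0.22, adjusted p 2.62e-28). It lies 926 bases from the vomeronasal receptor gene Vmn2r96 on the same strand. The unit chr5:64891801-64917401, which begins in an ERVK copy and crosses IAP, ETn and MMERVK9 parts, went from 2.44, 0.832 and 2.57 to 1576, 1695 and 1713 (log2 change 9.20, SE 0.19, adjusted p 1.94e-28). In each of these IAP units the libraries of 48 h lay close together. An IAP unit that fell, chr5:8466601-8477401, begins in an IAP copy and went from 114, 101 and 109.7 to 25.8, 27.9 and 28.3 (log2 change -1.94, SE 0.20, adjusted p 2.41e-10), still lower after rescaling (log2 change -1.59, adjusted p 1.28e-08).

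The largest ETn rise, chr3:45103201-45146201, crosses ETnERV2 and MMERVK9C internal parts over 9.12% of its length. It held 2.44, 0 and 1.71 at 0 h, 65.5, 11.5 and 6.98 after 3 h, 594, 821 and 732 after 12 h and 2167, 2216 and 2331 after 48 h (log2 change 10.05, SE 0.40, adjusted p 2.27e-21). At 3 h its first replicate stood far above the other two. The unit chr4:90226601-90239001 begins in an ERVK copy, lies 914 bases from the zinc finger gene Zfp352 and went from 0.813, 2.5 and 4.29 to 1438, 1499 and 1466 (log2 change 8.83, SE 0.39, adjusted p 4.58e-20). Another ETn unit, chr10:7331601-7356601, rose from 2.44, 4.99 and 6.001 to 1879, 2215 and 1947 (log2 change 8.58, SE 0.21, adjusted p 5.62e-27). The unit chr12:4548201-4557001, with an RLTRETN_Mm LTR inside it, fell from 438, 474 and 465 at 0 h to 250.2, 293 and 291 after 12 h and 154, 143 and 141 after 48 h (log2 change -1.65, SE 0.12, adjusted p 2.43e-14). Its libraries after 12 h already lay below all at 0 h.

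In the MMERVK9 and RLTR9 group the largest rise was in chr9:36419001-36504601 on the minus strand, which went from 3.25, 1.66 and 9.43 at 0 h to 863, 1144 and 1016 after 12 h and 5231, 5425 and 5221 after 48 h (log2 change 10.08, SE 0.31, adjusted p 1.87e-24). It overlaps, on the opposite strand, an RLTR13B2 unit, chr9:36492401-36514601, that rose over the same times. It had 2 reads in all at 0 h and 209, 215 and 253 scaled reads after 48 h, a ratio of 406 (95% exact interval 112 to 3354, counting error only). No source used here gives the strand setting of the counting, so reads of these 2 units may not be fully separated. In all, 370 of the 5686 units overlap another of them in this way. In the RLTR13 group, chr15:37068401-37082001 is 52.2% ERVK, with RLTR45 and ERVB4 parts, and went from 9.75, 13.3 and 9.43 at 0 h to 162, 186 and 172 after 12 h and 1394, 1511 and 1467 after 48 h (log2 change 6.96, SE 0.17, adjusted p 2.24e-27). Its log2 change after 3 h was 0.16 (adjusted p 0.508). The same group holds the largest fall among all units called lower after 48 h, chr10:112225801-112231201, with an RLTR13G LTR inside it, from 74.8, 88.2 and 81.4 to 8.86, 5.42 and 6.88 (log2 change -3.37, SE 0.22, adjusted p 1.65e-15). The RLTR13C3 unit chr3:112243401-112273001 fell from 167, 169 and 165 to 34.7, 27.9 and 32.1 (log2 change -2.37, SE 0.16, adjusted p 2.77e-15).

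The smaller groups also held units that rose steeply, mostly with little ERVK sequence in them. In the RLTR17 unit chr14:45733001-45754201 the LTR covers 1.71% and the signal went from 7.32, 15 and 13.7 to 174, 218 and 191 (log2 change 3.96, SE 0.20, adjusted p 1.03e-18). In the same group chr10:115268401-115271801 fell from 39, 36.6 and 44.6 to 8.12, 11.6 and 11.5 (log2 change -1.86, SE 0.25, adjusted p 4.43e-08). Units of this small group thus moved both ways. The RMER16 unit chrX:114322601-114336001 went from 6.5, 5.82 and 6.86 to 657, 792 and 676 (log2 change 6.58, SE 0.18, adjusted p 3.75e-26). The RMER17B unit chr3:86863201-86865401 fell from 30.9, 20.8 and 31.7 to 3.69, 3.87 and 3.06 (log2 change -2.65, SE 0.34, adjusted p 3.01e-08). RMER units likewise moved both ways. Of 4 BGLII units with large rises, chr8:69603401-69611001 went from 8.94, 9.98 and 6.86 to 509, 572 and 514 (log2 change 5.81, SE 0.19, adjusted p 6.01e-24), while others peaked after 12 h. One of these, chr14:43694601-43746001, held 21.9, 28.3 and 24.9 at 0 h, 97.2, 55.4 and 68.2 after 3 h, 685, 838 and 798 after 12 h, 398, 559 and 417 after 24 h and 223, 220.0 and 249 after 48 h. Its log2 change from 24 to 48 h was -0.97 (SE 0.16, adjusted p 3.07e-05). The other, chr14:41532201-41535001, held 47.3, 74.6 and 53.5 after 12 h and 9.6, 13.2 and 18.3 after 48 h. In both, all 12 h libraries lay above all 48 h libraries. Among the remaining families the MMERVK10D3 unit chr8:123172801-123184001, 52.4% ERVK, went from 32.5, 47.4 and 30.9 at 0 h to 270.1, 199.8 and 204 after 3 h and 3102, 3427 and 3181 after 48 h (log2 change 6.44, SE 0.14, adjusted p 3.17e-28). It lies 2234 bases from the dipeptidase gene Dpep1.

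Further units with large rises spread over the same range. The MMERVK10C unit chr16:20982201-20992801 went from 4.06, 2.5 and 0.857 at 0 h to 1347, 1509.9 and 1382 after 48 h, and the ETn unit chr9:24709801-24720801 from 0, 0 and 1.71 to 116, 166 and 142 after 12 h and 614, 618 and 599.8 after 48 h. In the MMERVK9 group chr19:39744601-39775401 went from 4.06, 6.65 and 0.857 to 1913, 2152 and 2111, and in the RLTR13 group chr7:26986601-27003401 from 0, 0 and 0.857 to 367, 394 and 368. The RMER unit chrX:32484201-32507201 and the unit chr17:18607401-18629201 of the remaining families reached 292, 328 and 311 and 195, 208 and 209, from 0.813, 0.832 and 0.857 and 0, 1.66 and 0.857. An ETn unit among the 5 largest rises after 3 h, chr7:44162401-44186601, had 0, 0 and 0.857 at 0 h, 14.2, 5.09 and 10.1 after 3 h and 151, 164 and 164 after 48 h. For units named by their 48 h change, libraries that do not overlap between 0 and 48 h were a condition of the choice and not a finding.

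**Figure D4:**
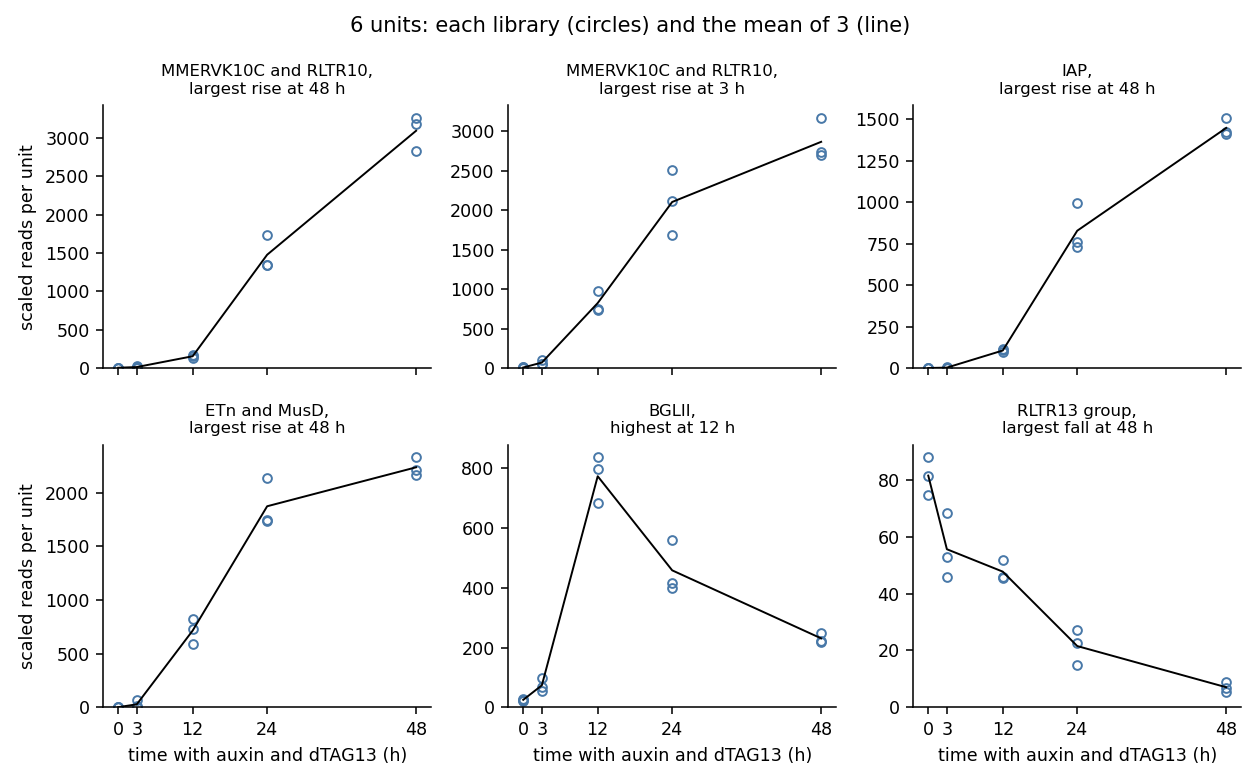
Scaled reads per unit (linear axis from 0) against time for 6 units, circles for the 3 libraries and a line through the means. The first 4 rise at each step to 48 h, the BGLII unit is highest after 12 h (685 to 838 scaled reads) and falls to 220.0 to 249 after 48 h, and the RLTR13 group unit falls from 74.8 to 88.2 at 0 h to 5.42 to 8.86 after 48 h.

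The 3 units with the most scaled reads at 0 h, not divided by length, were not called higher after 48 h with the deposited scaling. The unit chr15:86194601-86195401, only 800 bases long and with an RLTR10A LTR over 19.2% of it at its start, held 53653, 48086 and 56914 at 0 h and 44632, 45091 and 49069 after 48 h (log2 change -0.19, SE 0.13, adjusted p 0.178). The copy that puts it in the group was listed at a mean of 0.563 scaled reads at 0 h. An MMERVK10C unit, chr3:62159001-62163801, held 20732, 20356 and 18541 at 0 h and 17714, 18273 and 18287 after 48 h (log2 change -0.13, SE 0.11, adjusted p 0.276). Both of these log2 changes turn sign after rescaling, to 0.17 (adjusted p 0.134) and 0.23 (adjusted p 0.0152), so that chr3:62159001-62163801 is then called higher. The IAPEY3 unit chr4:145403001-145473601 held 14632, 16825 and 14713 at 0 h and 11165, 11825 and 12134 after 48 h (log2 change -0.39, SE 0.12, adjusted p 0.00642, and -0.03 with adjusted p 0.648 after rescaling).

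Most units that rose were first called after 12 h. Of the 2676 tested, 718 were first called higher after 3 h, 1362 after 12 h, 113 after 24 h and 18 after 48 h, and 465 at no time. At all 4 times 716 were called higher. Between neighbouring times, 2254 were higher and 2 lower from 3 to 12 h, beside 37.4% and 1.33% of all tested non-coding units. From 12 to 24 h 1623 were higher and 152 lower, beside 16.8% and 9.75%, and from 24 to 48 h 864 and 168, beside 10.5% and 13%. Among the units called higher after 48 h, the median share of the log2 change that was reached after 3 h was 23.3% for the 489 MMERVK10C and RLTR10 units, 6.48% for the 723 IAP units and 2.08% for the 423 ETn and MusD units. At 12 h these shares were 65.9%, 45.9% and 50.4%. From 12 to 24 h, 642 of 804 IAP units and 120 of 229 MMERVK9 and RLTR9 units were called higher, whether or not they had risen before. From 24 to 48 h 298 and 25 were. Over all tested non-coding units the shares higher in these steps were the 16.8% and 10.5% given above. The counts from 24 to 48 h rest on single libraries, with 511 higher when 24 h replicate 3 was left out and 537 when 48 h replicate 2 was, and 85 lower when 24 h replicate 2 was left out and 93 when 48 h replicate 1 was. The 152 units lower from 12 to 24 h became 74 with 12 h replicate 2 left out, and 75, 256 and 83 with 24 h replicates 1, 2 and 3 left out in turn. The 2 lower from 3 to 12 h became 1 with 3 h replicate 3 left out and 5 with 24 h replicate 2 left out. A rise that did not last was seen in 71 units, called higher after 12 h and not at 24 or 48 h, of which 15 were IAP and 14 RLTR13, ERVB4 and RLTR44/45 units. Of all tested ERVK units, 21 were higher after 12 h and lower after 48 h. These courses, and calls at all 4 times, were not counted over all non-coding units, of which 39.4% were lower after 48 h. The counts therefore do not show a trait of ERVK units.

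The first replicate after 3 h stood above the others where units rose. In the 718 units called higher after 3 h it was the highest of the 3 libraries in 527 (73.4%), and their summed signal was 38807 scaled reads in it, 26462 in the second and 29141 in the third. It was the highest in 46.8% of the other tested ERVK units and in 36.0% of the 13054 tested non-coding units outside the ERVK set. Without this library 576 units were higher and 112 lower after 3 h, and of the MMERVK9 and RLTR9 units 40 were higher in place of 62.

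Fewer of the units in which little of the length is ERVK were called higher. Of 767 tested units with under 10% ERVK, 419 (54.6%) were higher and 201 (26.2%) lower after 48 h, with a median log2 change of 0.65. Of 472 units with 50 to 75% ERVK, 440 (93.2%) were higher and 14 lower, with a median of 4.84, and of 130 with 90% or more, 126 (96.9%) were higher and 0 lower. In this last class the filter tells most, since most such units were not tested: tested units were 28.4% ERVK in the median and 8800 bases long, and the 3010 untested ones 90.8% ERVK and 1800 bases long. All lengths are multiples of 200 bases, the grid on which the units lie. Units with an internal retroviral part were higher in 1709 and lower in 106 of 1953 cases (median 4.67), and units over LTRs alone in 372 and 199 of 723 (median 0.52). Over all tested non-coding units 29.3% were higher and 39.4% lower. The filter bears on this split as well, since units that averaged under 10 at 0 h were tested only if higher later. No read fell at 0 h in 95 of the 1953 and 12 of the 723 units. The differences by cover and by part were not tested.

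The place of the ERVK copy in the unit went with the call as well. Where a copy lay over the first base (units that are 90% or more ERVK left out), 952 of 1092 tested units were higher and 61 lower after 48 h (median 4.67). Where copies lay inside only, 895 of 1237 were higher and 179 lower (median 3.39). Where a copy lay only at the end of the unit, 108 of 217 were higher and 65 lower (median 0.52), nearer to the 29.3% and 39.4% of all tested units. This split runs along the family groups in part, and within MMERVK10C and RLTR10 units 239 of 243 with a copy at the start were higher, 189 of 207 with copies inside and 19 of 28 with a copy at the end. For IAP units these counts were 441 of 472, 193 of 232 and 30 of 39. The filter bears on these counts unequally. Over all groups, no read fell at 0 h in 64 of the 1092 units with a copy at the start. The same held for 30 of the 1237 with copies inside and 3 of the 217 with a copy at the end. These units, and all others that averaged under 10 at 0 h, were tested only because they were higher later. The counts of units with no read thus understate what the filter does. Of all 2081 ERVK units called higher, only 660 averaged 10 or more at 0 h, and counts by place on a 0 h filter are not given. The differences by place were not tested.

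The counts on the other strand were different. Of 1187 tested non-coding units that overlap an ERVK copy only on the opposite strand, 518 were higher and 396 lower after 48 h, with a median of 0.08. Units over an LTR element of another class on the same strand were higher in 496 and lower in 256 of 964 cases (median 0.70), and units over no LTR element in 1312 and 4723 of 9852 (median -0.47, or -0.12 after rescaling). At 3 h 105 of 1187, 52 of 964 and 292 of 9852 were higher. The same filter acts on all of these, but not to the same extent. No read fell at 0 h in 107 of the 2676 tested ERVK units, 20 of the 1187, 5 of the 964 and 30 of the 9852. These units, and all others that averaged under 10 at 0 h, were tested only because they were higher later. The counts of units with no read thus understate what the filter does to the medians. Of the 2081 ERVK units called higher after 48 h, only 660 averaged 10 or more at 0 h. Among the 1266 ERVK units chosen by a mean of 10 or more at 0 h, 662 were higher and 322 lower. Of all non-coding units chosen that way, 12% were higher and 51.4% lower, and the other classes are not given on that filter. The differences between the classes were not tested.

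**Figure D5:**
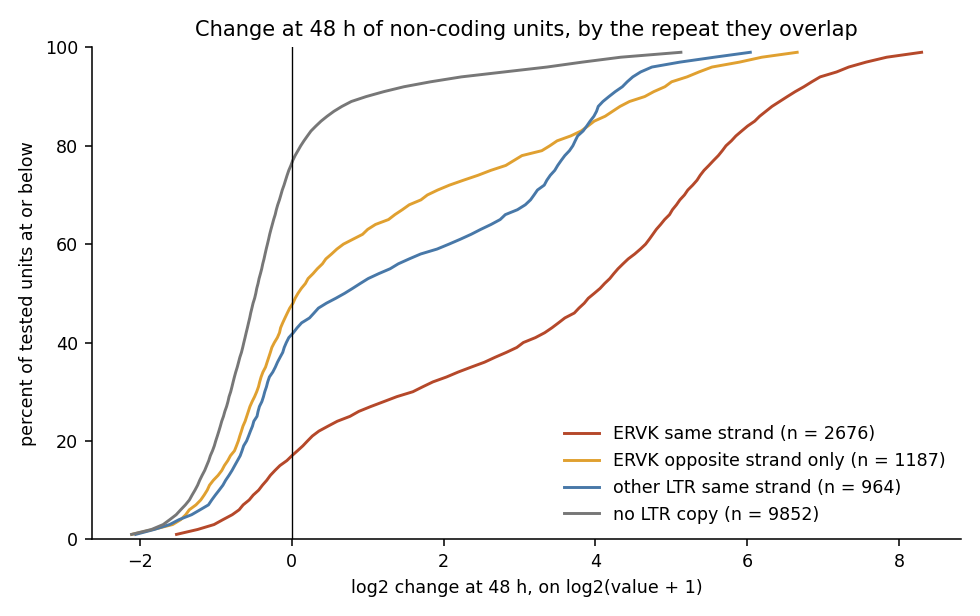
Cumulative share of tested non-coding units against the log2 change after 48 h, one line per class of overlapped repeat. The line for ERVK on the same strand lies far to the right, with its median at 3.98 against 0.08 for ERVK on the opposite strand only, 0.70 for another LTR class and -0.47 for no LTR copy. Units that averaged under 10 at 0 h are in the lines only because they were higher later. Of the 2081 ERVK units called higher, only 660 averaged 10 or more at 0 h. Units with no read at 0 h are the extreme of these, with 107 of 2676, 20 of 1187, 5 of 964 and 30 of 9852 units. The filter thus moves the lines by more than these counts show, and lines on a 0 h filter are not given.

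Units that fell held less ERVK sequence than those that rose, a difference that was not tested. All 305 units called lower after 48 h averaged 10 or more scaled reads at 0 h, against 660 of the 2081 called higher, of which 107 had no read at 0 h. The filter on low values fixes this in part, since a unit with few reads at 0 h was tested only if it rose. ERVK sequence made up 5.16% of the falling units in the median and 35.2% of the rising ones, and 199 of the 305 lay over LTRs alone against 372 of the 2081. The falls were small, with a median log2 change of -0.71 and 83 of 305 beyond -1, while 893 of the 2081 rises were beyond 5 on the log2 scale. The 290 units called neither way were 9.57% ERVK in the median.

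Reads listed for the repeat copies themselves do not add up to those of the units. Among the 2081 units called higher after 48 h, the signal listed for all ERVK copies in the unit was 21.9% of the unit's own in the median after 48 h, under 10% in 812 units and over 100% in 461. For MMERVK9 and RLTR9 units the median was 2.81% although 25.2% of their length was ERVK, and for MMERVK10C and RLTR10 units 36.5% with 42.3% of the length. The unit chr19:9502201-9522801 held 2390.0 ± 175 (SD) after 48 h and its copies 8137 in sum, and the unit chr3:45103201-45146201 held 2238 ± 84.5 and its copies 5.59. No source used here gives how reads with several positions were counted in either class, so a unit's value is not the output of 1 single copy.

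Genes near units that rose were called both ways. Within 10 kb of a unit called higher after 48 h and not overlapping it, 59 of 169 tested genes on the same strand (34.9%) were called higher and 55 (32.5%) lower, beside 7.65% and 58.4% of all tested genes. On the opposite strand 33 of 149 (22.1%) were higher and 62 (41.6%) lower, so falls outnumbered rises there. Within 10 kb of a unit called lower, 0 of 63 genes on the same strand were higher and 44 (69.8%) lower, and 1 of 70 on the opposite strand was higher and 55 (78.6%) lower. The differences from all genes were not tested. Vmn2r96, a vomeronasal receptor, had 1 read in all at 0 h and 378 ± 35.3 scaled reads (SD) after 48 h, next to the IAP unit chr17:18555801-18580801. Clec2g, a C-type lectin, held 20 ± 1.84 at 0 h and 2686 ± 253 after 48 h (SD, log2 change 7.0) and lies 5780 bases from an IAP unit (chr6:128921401-128928601). Mmp1b, a collagenase, held 3.9 ± 2.55 at 0 h and 521 ± 24.1 after 48 h (SD, log2 change 6.87), 1175 bases from an ETn unit (chr9:7389201-7397601). Zfp352, named above beside its ETn unit, held 2.49 ± 1.65 at 0 h and 123 ± 19.2 after 48 h (SD, log2 change 5.26). Nat8f2, of a family of acetyltransferases, held 4.19 ± 1.76 at 0 h and 348 ± 37.2 after 48 h (SD, log2 change 6.13), and Dpep1 9.72 ± 0.277 at 0 h and 169.8 ± 12.9 after 48 h (SD, log2 change 3.99). These are neighbours by position, named after their values were seen. Of the 5686 units, 104 overlap a gene on the same strand, where reads of gene and unit cannot be told apart, and 944 on the opposite strand.

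With the deposited scaling, no listed gene for an ERV silencing protein was called higher after 48 h, but some were after rescaling. Of 36 such genes listed, 35 were tested, 0 were called higher and 26 lower after 48 h (median log2 change -0.36), beside 7.65% and 58.4% of all genes. After rescaling 9 were higher and 9 lower, and the rescaled shares of all genes are not given here. Trim28, the corepressor that brings SETDB1 to ERVs, held 3166 ± 239 at 0 h and 2002 ± 169 after 48 h (SD, log2 change -0.66, adjusted p 5.73e-07) and was lower with either scaling. Setdb1 transcription was 846 ± 24.9 at 0 h and 732 ± 46.3 after 48 h (log2 change -0.21, adjusted p 0.129), and Suv39h1 483 ± 36.3 at 0 h and 455 ± 23.3 after 48 h (log2 change -0.08, adjusted p 0.562). Their log2 changes turn to 0.15 (adjusted p 0.00376) and 0.28 (adjusted p 5.72e-05) after rescaling. Nascent RNA of these genes says nothing of the level of their proteins. Zfp809, the zinc finger protein for a proviral primer binding site, held 1538 ± 113 at 0 h and 1457 ± 60.6 after 48 h (log2 change -0.08, adjusted p 0.588, and 0.29 with adjusted p 1.65e-07 after rescaling).

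The authors' deposited table gives a call for each unit by their own rule. There, 360 of the 5686 units were up and 0 down after 3 h, 1730 and 1 after 12 h, 2955 and 35 after 24 h and 3449 and 86 after 48 h. Over all 42029 non-coding units the authors' deposited table has 1.21% up and 0.0262% down after 3 h, 8.15% and 0.316% after 12 h, 13.5% and 2.55% after 24 h and 16.7% and 6.24% after 48 h. For the ERVK units the shares up in the authors' deposited table were 6.33%, 30.4%, 52% and 60.7%, and those down 0%, 0.0176%, 0.616% and 1.51%. Of the 3449 units up after 48 h in the authors' deposited table, 1949 were also called higher in the fit used here, which tested 2676 of the units.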

How the data were processed

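TT-seq values came from 15 libraries (5 times, 3 biological repeats, 2 runs each, 30 samples), grouped by the labels. STAR 2.5.2a, DESeq2 and deepTools, and the build mm10 (GRCm38), are named in the submitters' processing notes without their roles. The signal values deposited by the authors are reads per unit divided by a size factor of the library. No source used here gives whether these come from the yeast spike-in, or the counter, strand setting, annotation and treatment of multi-mapped reads. A second table deposited by the authors holds the mean signal per kilobase and their calls. Unit ends lie on a 200-base grid. Dividing by each library's smallest step (0.636 to 0.936) gave whole reads for 99.997 to 99.999% of values (tolerance 0.05).

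Units were matched to ERVK copies by strand and coordinates. Limma 3.58.1 (R 4.3.3) with an intensity trend was fitted to log2 of value plus 1 over all 15 libraries, for 15730 non-coding units with a mean of at least 10 (genes likewise), with Benjamini-Hochberg adjustment and a threshold of 0.05. A log2 change on this scale understates changes of low units. Alternatives were edgeR 4.0.16 and DESeq2 1.42.0 on recovered reads, other scaling, pseudocounts, filters, trends, samples and definitions, and a replicate block. Leaving out the 3 highest units, and units over genes, were chosen after the data were seen. Named units are, per family group, the 4 largest rises and 2 largest falls at 48 h among called units whose 0 and 48 h libraries do not overlap, the 5 largest called rises at 3 h and at 12 h, and the 3 highest at 0 h. The units, lists and tests were chosen with earlier results of these data known. Sequences at unit starts were not analysed here, and RefSeq promoter windows (GRCm38.p6) were used in their place, a choice made after the files were seen. Depth limits values of few reads, and counting intervals cover counting error only.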

Additional observations from a re-analysis of the deposited data

How the results depend on the processing

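The counts of ERVK units called higher were kept within 1.5 times by most settings, and the counts called lower by fewer. With the fit made on units with a mean of 10 or more at 0 h, 223, 704, 695 and 662 units were higher at 3, 12, 24 and 48 h, and 888, 428 and 282 were higher over the steps 3 to 12, 12 to 24 and 24 to 48 h. A minimum mean of 30 gave 1357, 1321 and 1284 higher at 12, 24 and 48 h, 33 lower at 12 h, 1 lower from 3 to 12 h and 1068 higher from 12 to 24 h. No minimum gave 79 lower at 3 h, 4017 and 4426 higher at 24 and 48 h, 5 lower from 3 to 12 h and 2522 higher from 12 to 24 h. In these 3 settings other numbers of units were tested, which bears on the counts. Counting only units that are at least 50% ERVK, 779 tested units in place of 2676, gave 195, 675, 729 and 733 higher and 19, 6, 10 and 16 lower. Leaving out units that overlap a gene, with 2110 tested, gave 33, 93 and 183 lower at 12, 24 and 48 h. These counts fall in part because fewer units are counted. Rescaling over genes gave 43, 135 and 167 lower at 3, 12 and 48 h, 78, 69 and 55 lower over the 3 steps and 1492 higher from 24 to 48 h. DESeq2 on the recovered reads gave 447 higher at 3 h. Limma without its trend gave 57 lower at 3 h and 6, 86 and 92 lower over the 3 steps, and a pseudocount of 5 gave 6 lower from 3 to 12 h and 1304 higher from 24 to 48 h. The cause of these last 4 sets of differences was not tested. With edgeR on the recovered reads, 542, 2055, 2118 and 2080 units were higher and 147, 59, 164 and 304 lower.

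The summed signal as a ratio to 0 h was 1.07, 1.54 and 3.75 at 3, 12 and 48 h after rescaling, so the direction at 3 h is reversed. Over units at least 50% ERVK it was 1.96, 3.90 and 5.87 at 12, 24 and 48 h, over units of 1 family group 2.52 at 48 h, and without the 3 units highest at 0 h 2.83 and 3.50 at 24 and 48 h. Of the 61 named units, 58 kept direction and call in every setting. After rescaling, the log2 change at 48 h became 0.17 for chr15:86194601-86195401 and 0.23 for chr3:62159001-62163801.

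Leaving out each library in turn gave 576 to 729 higher and 64 to 186 lower at 3 h, 1961 to 2106 and 31 to 55 at 12 h, 2056 to 2118 and 118 to 210 at 24 h, and 2052 to 2085 and 258 to 313 at 48 h. The steps gave 2069 to 2269 higher and 1 to 5 lower from 3 to 12 h, 1445 to 1647 and 74 to 256 from 12 to 24 h, and 511 to 957 and 85 to 177 from 24 to 48 h. The ratios of summed signal were 0.882 to 0.947, 1.65 to 1.84, 2.25 to 2.56 and 2.86 to 2.98.

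Samples with the same replicate number did not deviate together from unit to unit: over 30 such pairs the correlations of deviations from the group means were -0.0266 to 0.0553. A shift shared by a whole library would not show in these correlations. Replicate 2 had the highest summed signal over the ERVK units at 0, 12, 24 and 48 h and the lowest after 3 h. Whether the numbers pair the samples is therefore not settled. With a replicate block, 727, 2087, 2118 and 2084 units were higher and 160, 55, 169 and 307 lower at 3, 12, 24 and 48 h. With about 0.459 to 1.55 M reads in 5686 units, 3010 units were too low to be tested, and for them a missing call does not show that they did not change.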
